A study of Mus musculus with 3 samples.

Results

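Neutrophils of a mouse melanoma were examined as the cells that the submitters' cluster table names Neutrophils, 611 of 12670 cells in all. Each of 3 tumors gave 1 library of droplet-captured single cells with RNA counted as unique molecular identifiers (UMIs): an untreated tumor held 391 of these cells, a tumor that had regressed under the BRAF inhibitor vemurafenib held 216, and a tumor that had progressed under vemurafenib held 4. All 3 tumors came from the C57BL/6 model with a Cre-activated Braf V600E allele and Tyr.CreER, which was also crossed to a tdTomato reporter, in which 4-OH tamoxifen painted on flank skin at 8 to 12 weeks of age starts the tumor. The untreated and the treated tumors share these alleles and the tamoxifen, the Tyr promoter drives CreER in the melanocyte lineage so the alleles are switched in that lineage, and the labels give no dose or length of treatment for these tumors. The comparison asks how the neutrophils of a tumor shrinking under BRAF inhibition differ in their RNA from those of a tumor without drug.

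Neutrophils are short-lived white blood cells that are made in the bone marrow, leave it under the control of the chemokine receptors CXCR2 and CXCR4, and enter inflamed tissue and tumors. Their granules are filled in sequence as the cell matures: RNA for primary granule enzymes comes first, RNA for secondary granule proteins such as lactoferrin and cathelicidin follows in myelocytes and metamyelocytes, and tertiary granule and secretory genes come last, so that mature cells keep granule proteins whose RNA they no longer make. The alarmins S100A8 and S100A9 make up a large part of the cytosolic protein of the cell. In tumors neutrophils are known as sources of CXCL2, IL-1 and other mediators that recruit further myeloid cells.

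With 1 tumor in each group no test between tumors was possible, cells are not replicates, and every interval below is a 95% interval that covers counting error only. Levels are given as CPM, the UMIs of a gene summed over the neutrophils of a tumor, divided by all UMIs of those cells and scaled to the same total of 1000000. The untreated neutrophils held 1521063 UMIs with a median of 3257 per cell, the regressed 297524 with a median of 1251.5, and the progressed 7058 with a median of 1759.5. The regressed library also differed in its origin, since its neutrophils held 71 UMIs of the Y-linked genes Ddx3y, Eif2s3y, Uty and Kdm5d and 2 of Xist, against 8 and 460 in the untreated. RNA of other cell types was found in the neutrophils of both tumors. The 5 red blood cell markers summed to 42.1 CPM in untreated and 2033 CPM in regressed neutrophils, 8 NK or T cell markers to 4.60 and 107.6 CPM, 10 monocyte or macrophage markers to 956 and 2672 CPM, 4 keratinocyte markers to 368 and 907 CPM and 6 fibroblast markers to 4915 and 5032 CPM, and the part of this RNA in the comparisons below was not tested. The 6 mast cell or basophil markers summed to 49.97 and 1163 CPM and are taken up below. The other lists were low: 8 dendritic cell markers summed to 5.26 and 20.2 CPM (Flt3 and Clec9a at 0 in both), 4 B cell markers to 1.31 and 0 CPM, 5 eosinophil markers to 14.5 and 40.3 CPM (Prg2 and Epx at 0 in both), and 4 endothelial markers to 50.6 and 63.9 CPM. The 6 melanoma markers summed to 67.1 and 104 CPM, against 83.0 and 226 CPM in all other cells of the libraries, and in the untreated neutrophils nearly all of it was the transgene sequence tWPRE (100 UMIs in 78 cells, and 25 UMIs in 20 regressed cells).

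All 5 genes fixed as neutrophil markers were higher in this cluster than in any other immune cluster, in the untreated and in the regressed tumor. S100a8 reached 128561 CPM in untreated neutrophils against 2506 CPM in the next cluster, Monocytes1, and S100a9 86950 against 673 CPM. Retnlg, a resistin-like secreted protein, stood at 16803 CPM against 102 CPM in macrophages. Csf3r, the receptor of granulocyte colony-stimulating factor, stood at 580 against 36.5 CPM, and Cxcr2, the receptor for CXCL1 and CXCL2, at 447 against 7.03 CPM. A UMI of S100a8 was also found in 77.7% of untreated and 55.6% of regressed non-immune stroma cells (median depths 4654 and 3151.5 UMIs), at 340 and 281 CPM, so the presence of S100a8 RNA in a cell did not by itself mark a neutrophil. Of the 8 NK or T cell markers Cd8a, Cd4, Ncr1 and Klrb1c were at 0 in the neutrophils of both tumors. The other 4 together gave 7 UMIs in 7 untreated cells (1.79%) and 32 UMIs in 28 regressed cells (12.96%).

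The label did not hold for a small set of cells within the cluster. Of the regressed neutrophils 11 of 216 (5.09%, 2.57 to 8.93) carried 3 or more UMIs, summed over Mcpt8, Gata2, Cyp11a1, Fcer1a, Cd200r3, Ms4a2 and Il4, and 2 of 391 untreated ones did (0.512%, 0.0620 to 1.84). Mcpt8 encodes a protease known from basophils, Gata2 a transcription factor of the basophil and mast cell lineages, Fcer1a and Ms4a2 the IgE receptor chains, and Il4 the cytokine interleukin-4. The 7 genes were chosen after their values were seen, because several led the comparison of the tumors. In the 11 regressed cells S100a8 and S100a9 together took 0% to 0.146% of the UMIs of a cell. In the 185 regressed cells without a UMI of the 7 genes the median was 8.51%, with a range of 0.217% to 32.9%. In the 386 untreated cells without such a UMI the range was 0.138% to 47.1%. Some cells outside the set were thus also nearly without alarmin RNA. Since Mcpt8 is one of the genes that chose the 11 cells, its level in them is no test. The 11 cells held 77 UMIs of Mcpt8, in 7 of the 11, and the other 205 regressed cells held 0. They held no UMI of Csf3r or Retnlg, although 13 UMIs of Cxcr2, and of the mast cell proteases Cpa3 was higher in them (22 UMIs, 816 against 99.8 CPM in the other regressed cells), while Mcpt4, Cma1 and Tpsb2 gave 7, 5 and 6 UMIs, or 260, 185 and 223 CPM against 140, 170 and 307 CPM. Besides the genes that chose them, the genes that led these cells included Rgs1, Ccl9, Cd7, Ets1, Plac8, Hgf and Ccl3: Ccl9 stood at 4673 CPM against 81.3 CPM in the other regressed cells, Cd7 at 1780 against 22.2 CPM, and Ccl3, a chemokine for monocytes, at 23105 against 2354 CPM. They are called the Mcpt8 cells here, and their effect is given beside the counts, levels and correlations below that it changes most.

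**Figure D1:**
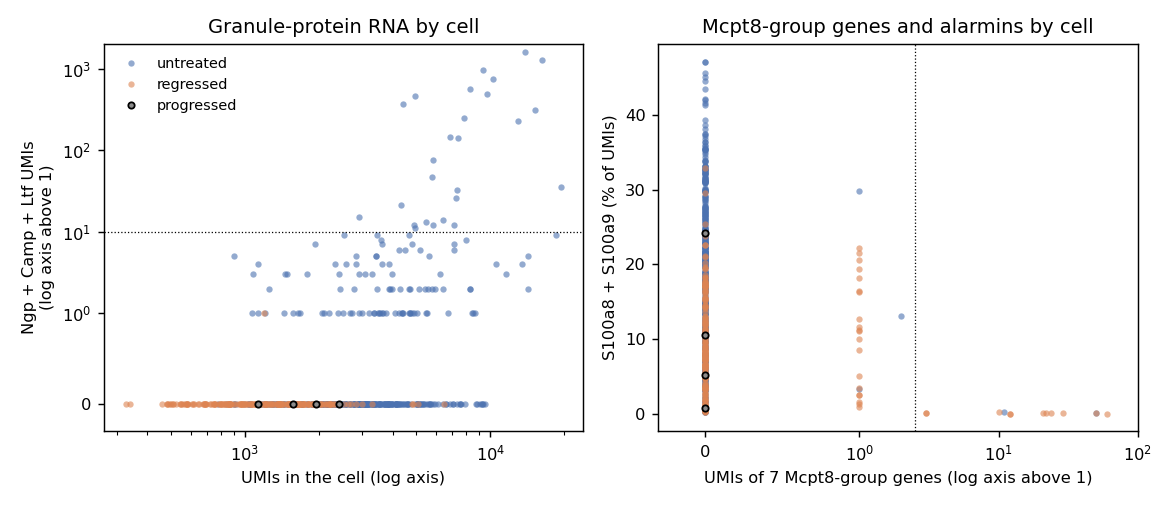
Each point is a cell of the cluster, colored by tumor. Left: UMIs of Ngp, Camp and Ltf together (log axis above 1) against all UMIs of the cell (log axis), with a dotted line at 10 UMIs, above which lie 26 untreated cells and no regressed cell; right: the percent of UMIs from S100a8 and S100a9 against UMIs of the 7 Mcpt8-group genes (log axis above 1), where the 11 regressed and 2 untreated cells to the right of the dotted line lie at 0.186% or lower.

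Neutrophils were a larger part of the immune cells of the untreated tumor than of the regressed one, and were nearly absent from the progressed one. Of 1053 immune cells of the untreated tumor 391 were neutrophils (37.1%, 34.2 to 40.1), of 957 in the regressed tumor 216 (22.6%, 19.96 to 25.4), and of 683 in the progressed tumor 4 (0.586%, 0.160 to 1.49). The 3 intervals did not overlap. Without the Mcpt8 cells the shares were 37.0%, 21.7% and 0.586%. The denominators differed as well, since the 2 NK/T clusters held 180 and 58 cells in the regressed tumor and 25 and 15 in the untreated one. Among immune cells other than NK/T cells the shares were 38.6% (35.6 to 41.7) and 30.04% (26.7 to 33.5). Regressed neutrophils were shallower than untreated ones, and among cells with at least 1000 UMIs the shares were 37.3% and 18.0%. With 1 tumor in each group, differences between tumors and between treatments cannot be told apart.

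**Figure D2:**
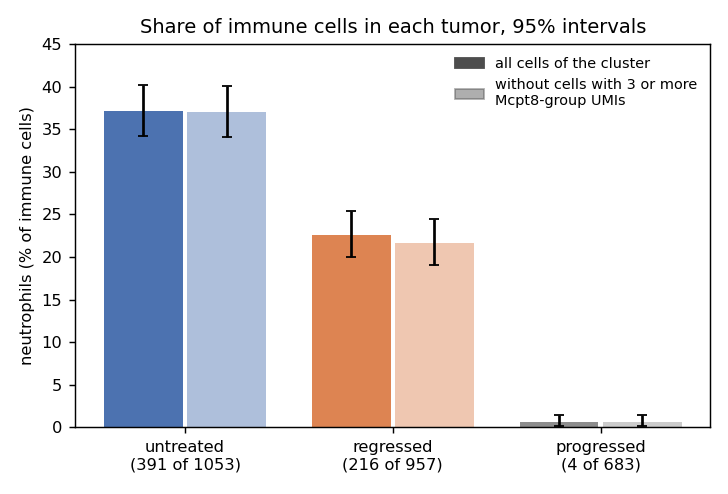
Neutrophils as percent of immune cells in each tumor, with 95% Clopper-Pearson intervals as error bars; the counts stand under the bars. Full colors show all cells of the cluster (37.1%, 22.6% and 0.586%), pale colors the share without cells that held 3 or more UMIs of the Mcpt8-group genes.

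The 20 genes that set untreated neutrophils furthest apart from the other immune clusters included alarmins, granule proteins and cysteine protease inhibitors. They were Camp, Cstdc4, Retnlg, S100a9, Stfa2, Stfa2l1, Ngp, Ltf, S100a8, Asprv1, Acod1, G0s2, Lcn2, Csf3r, Mxd1, Mmp9, Wfdc21, Pglyrp1, Lmnb1 and Trem1, ordered by the ratio to the next highest immune cluster, from 376 for Camp to 7.35 for Trem1. Because the clusters were built from the same cells, these ratios only describe the cluster. In the regressed tumor 3 of the 20 genes, Camp, Ngp and Ltf, dropped out, with 0, 1 and 0 UMIs. The stefins and related inhibitors were nearer between the tumors: Stfa2l1 stood at 2598 CPM in untreated and 2033 CPM in regressed neutrophils, Cstdc4 at 2837 and 2215 CPM, and Stfa2 at 581 and 309 CPM (-0.91). G0s2, an inhibitor of triglyceride breakdown, stood at 3807 and 3196 CPM, Acod1, which makes itaconate, at 954 and 746 CPM, and Mxd1, a transcription factor of terminal differentiation, at 748 and 948 CPM.

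Between regressed and untreated neutrophils the levels of many genes differed, and the balance of higher and lower genes depended on the scaling. Of 5887 features with at least 20 UMIs in both tumors together, 1770 (30.1%) were at least 2-fold higher and 290 (4.93%) at least 2-fold lower in the regressed neutrophils, and the median log2 ratio of all features was 0.58. S100a8 and S100a9 alone took 21.6% of untreated and 9.30% of regressed neutrophil UMIs, and the CPM of every other gene depends on what these 2 take of the total. With totals taken without haemoglobin genes, S100a8 and S100a9, 1281 features (21.8%) were higher and 428 (7.27%) lower, and the median was 0.37. With the scaling factor of the trimmed mean of M values (TMM), which moves every log2 ratio by -0.62, 660 features (11.2%) were higher and 791 (13.4%) lower and the median was -0.04. Ratios below are on the CPM scale and are to be read against the median of 0.58. Without the Mcpt8 cells 27.5% of the features tested were at least 2-fold higher and 5.6% lower.

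Genes of neutrophil granules were lower in the regressed neutrophils. Of 20 alarmin and secondary or tertiary granule genes, all with at least 20 UMIs, 11 were at least 2-fold lower, against 4.93% of all features, and 0 at least 2-fold higher; their median log2 ratio was -1.21, which lies 1.78 below the median of all features. The 3 largest differences were Ngp, Camp and Ltf. Ngp, neutrophilic granule protein, gave 5271 UMIs (3465 CPM) in untreated neutrophils and 1 UMI (3.36 CPM) in regressed ones. Camp, the antimicrobial peptide precursor cathelicidin, gave 2037 UMIs (1339 CPM) and 0 UMIs, which is 133-fold lower when 0 is set to a floor of 3 UMIs. Ltf, the iron-binding protein lactoferrin, gave 795 UMIs (523 CPM) and 0 UMIs, 51.8-fold lower at the same floor. In the 4 progressed neutrophils all 3 genes were at 0 of 7058 UMIs, where the floor of 3 UMIs is 425 CPM.

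All 3 genes lie on chromosome 9. The 250 bases before each start site are shown because these 3 genes carry the largest differences of the granule list. Capitals mark matches to the 8-base pattern TTGCNNAA of C/EBP factors, searched on both strands (TTNNGCAA on the other), in build GRCm38.p6, 5′ to 3′ along the gene. Ngp lies on the plus strand (chr9:110419558-110419807), Camp on the minus strand (chr9:109849457-109849706) and Ltf on the plus strand (chr9:111019042-111019291).
Ngp: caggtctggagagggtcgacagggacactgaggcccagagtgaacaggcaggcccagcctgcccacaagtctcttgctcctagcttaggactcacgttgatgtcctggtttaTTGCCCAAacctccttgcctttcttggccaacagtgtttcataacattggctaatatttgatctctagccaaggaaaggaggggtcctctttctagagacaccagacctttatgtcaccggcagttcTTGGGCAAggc
Camp: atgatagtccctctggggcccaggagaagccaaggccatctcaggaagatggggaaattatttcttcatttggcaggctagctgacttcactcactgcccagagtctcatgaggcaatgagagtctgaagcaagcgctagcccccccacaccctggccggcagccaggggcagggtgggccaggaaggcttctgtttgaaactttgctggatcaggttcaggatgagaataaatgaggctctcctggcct
Ltf: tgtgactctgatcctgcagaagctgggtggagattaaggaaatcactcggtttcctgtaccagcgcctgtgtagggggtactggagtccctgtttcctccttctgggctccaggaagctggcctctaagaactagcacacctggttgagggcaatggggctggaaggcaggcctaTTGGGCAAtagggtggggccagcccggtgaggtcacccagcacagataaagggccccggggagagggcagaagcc
Ngp held 2 matches, at 138 and 11 bases before the start, Ltf 1 match at 75 bases before it, and Camp none. All 3 matches were the same 8 bases read on one strand or the other, TTGGGCAA or TTGCCCAA. The pattern was found in 9.56% of 32851 RefSeq promoter windows of this length, and the 8-base word in 0.709% of windows. By gene, the pattern was found in 6 of 17 genes of the granule list that have a window. A gene with more than 1 window counted if any of them matched, so the share of windows and the count of genes are unlike units. A match shows only that the letters are there.

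RNA of these 3 genes was concentrated in a few untreated cells. In 26 of 391 untreated neutrophils (6.65%, 4.39 to 9.59) 10 or more UMIs of Ngp, Camp and Ltf were counted, and these cells held 7824 UMIs of the 3 genes, 96.6% of all. Another 100 untreated cells held 1 to 9 UMIs and 265 held none. No regressed neutrophil reached 10 UMIs (0 of 216, which allows a share of up to 1.69%), and 1 held a single UMI of Ngp. The granule-rich cells were deeper than the rest, with a median of 7195.5 UMIs against 2939 in cells without the 3 genes. After thinning to 500 UMIs per cell, Ngp was found in 13.8% (10.5 to 17.6) of untreated and 0.478% (0.0121 to 2.64) of regressed neutrophils, against 0.419% and 0% of thinned stroma cells, and Camp in 3.32% (1.78 to 5.62) and 0% (0 to 1.75).

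Further genes were high in the granule-rich cells against the other untreated neutrophils. Chil3, a chitinase-like secreted protein, stood at 963 CPM against 18.4 CPM in the other 365 untreated cells. Lcn2, the siderophore-binding lipocalin, stood at 12841 against 2346 CPM and Ifitm6, an interferon-induced membrane protein, at 10311 against 1210 CPM. Cebpe, the transcription factor that directs secondary granule genes, stood at 130 against 8.42 CPM, and Cybb, the catalytic subunit of the NADPH oxidase, at 251 against 16.1 CPM. Among the genes that led the other untreated cells, Spp1, osteopontin, gave 177 against 3446 CPM, Ccl3 712 against 3994 CPM, and Il1a 0 against 116 CPM. These cells were picked by the level of 3 granule genes, so the values describe them and are no test.

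Some genes were lower in regressed neutrophils also against the untreated cells that were not granule-rich. There 8 of the 18 granule list genes with enough UMIs were at least 2-fold lower, against 5.51% of all features tested. Lcn2 stood at 528 CPM in regressed neutrophils, a log2 ratio of -2.86 against all untreated neutrophils and -2.15 (-2.39 to -1.92) against the other 365. Ifitm6 stood at 333 CPM, with ratios of -2.91 and -1.86. Retnlg, found in 89.3% of untreated and 48.3% of regressed neutrophils thinned to 500 UMIs and in 4.07% and 0.475% of stroma cells, stood at 16803 and 2948 CPM, with ratios of -2.51 and -2.45. For Chil3 the ratio of -4.50 rested mostly on the granule-rich cells and was -1.45 (-4.58 to 0.56) without them.

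The other granule genes ranged from several-fold lower to no difference. The collagenase Mmp8 stood at 471 and 131 CPM (-1.84, -2.35 to -1.38), the WAP-domain protein Wfdc21 at 5290 and 1331 CPM (-1.99) and the surface glycoprotein Cd177 at 118 and 13.4 CPM (-3.14). S100a8 stood at 128561 and 54910 CPM (-1.23) and S100a9 at 86950 and 38115 CPM (-1.19). The gelatinase Mmp9 gave 604 and 511 CPM (-0.24, -0.50 to 0.01), haptoglobin Hp 1696 and 1664 CPM (-0.03, -0.17 to 0.11) and the integrin chain Itgam 162 and 249 CPM (0.62), close to the median of all features. Of 7 primary granule genes only Prtn3 and Ctsc passed 20 UMIs, proteinase 3 at 19.1 and 3.36 CPM, where the regressed value is 1 UMI, and cathepsin C at 73.6 and 67.2 CPM. Cebpe, which the granule-rich cells carried, stood at 25.6 and 23.5 CPM over all neutrophils (39 and 7 UMIs; -0.12, -1.53 to 1.05).

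**Figure D3:**
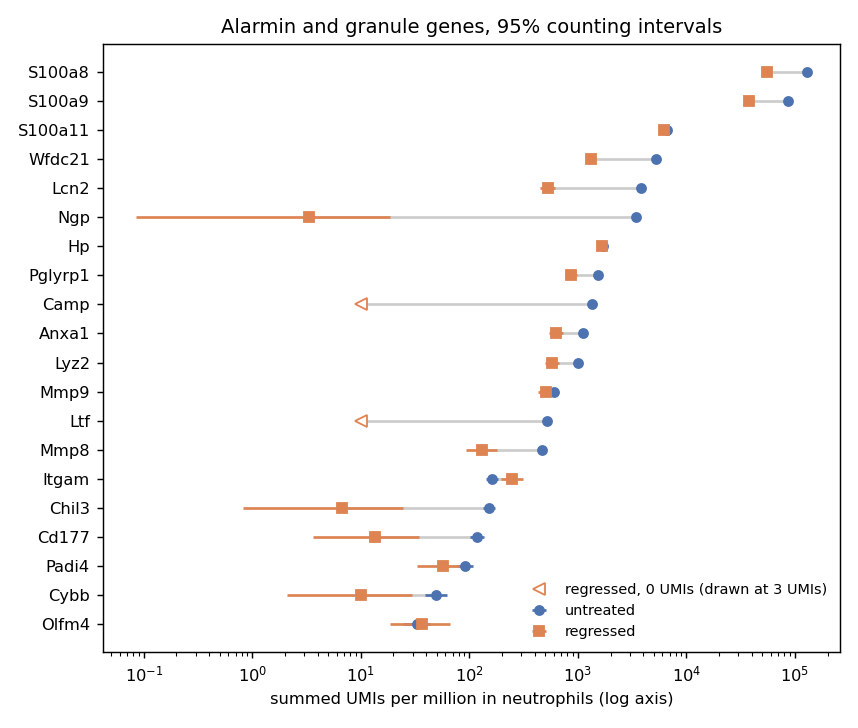
CPM in untreated (circles) and regressed (squares) neutrophils for the 20 alarmin and granule genes, on a log axis, with 95% counting intervals; open triangles mark Camp and Ltf, at 0 UMIs in the regressed cells and drawn at 3 UMIs. Ngp, Camp and Ltf show the widest gaps, while S100a11, Hp and Olfm4 lie nearly on top of each other.

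Several genes outside the granule list were also lower in regressed neutrophils. Hilpda, a lipid droplet protein induced in low oxygen, stood at 774 CPM in untreated and 77.3 CPM in regressed neutrophils (-3.32, -3.99 to -2.73). Spp1 stood at 2984 and 541 CPM (-2.46), and Prok2, the myeloid chemoattractant prokineticin, at 430 and 13.4 CPM (-5.00). The surface protein genes Ly6g, which marks mouse neutrophils, Ly6c2 and Ly6a2 stood at 486 and 77.3, at 412 and 30.2, and at 195 and 10.1 CPM. Wfdc17, a secreted inhibitor described in suppressive myeloid cells, stood at 16678 and 3838 CPM (-2.12), with the same counts in every cell as a feature without a symbol. All 15 genes that the naming rule picked as lower were picked again without the Mcpt8 cells. In macrophages and Monocytes1 cells Lcn2, Retnlg and Wfdc21 were lower in the regressed tumor as well (-3.18, -2.75 and -4.49), and so were Ly6a2 (-2.05) and Wfdc17 (-1.01), while Spp1 and Ifitm6 stood at 0.17 and 0.27. Spp1 was lower in NK/T cells (-1.48) and stroma (-1.15).

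Of the 15 genes picked as higher in regressed neutrophils, several belonged to the Mcpt8 cells. Cd7 stood at 1.97 CPM in untreated and 181 CPM in regressed neutrophils with all cells, and at 1.98 and 22.2 CPM without the Mcpt8 cells. Ccl9 stood at 92.7 and 497 CPM with all cells and at 73.2 and 81.3 CPM (0.15, -0.58 to 0.82) without them. Gata2, Cyp11a1 and Fcer1a are among the genes that chose those cells. They gave 55, 43 and 35 UMIs in the regressed cluster, of which 52, 41 and 26 lay in the 11 cells. Cks2, a cell cycle kinase subunit, was the sixth gene not named again, but 39 of its regressed UMIs lay outside the Mcpt8 cells. Without those cells it still stood at 27.7 CPM in untreated and 144 CPM in regressed neutrophils (2.38, 1.71 to 3.04). Without the Mcpt8 cells the rule named 9 of the same 15 genes and 6 others, Rac1, Clec4n, Cpeb2, H2-Q10, Ptgs2 and Map3k8.

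The 9 genes higher with and without the Mcpt8 cells were Cebpb, Jund, Klf2, Zfand5, Pnrc1, Snx20, Suds3, Ppp1r10 and Fgl2. Cebpb, the C/EBP factor of emergency granulopoiesis and activated myeloid cells, stood at 200 CPM in untreated and 6157 CPM in regressed neutrophils (4.95, 4.77 to 5.13), with a UMI in 46.8% and 94.9% of cells. In cells thinned to 500 UMIs it was found in 13.8% and 86.6%, and in 2.89% and 15.4% of stroma cells. Jund, an AP-1 subunit, stood at 105 and 2568 CPM (4.61) and Klf2, a transcription factor that restrains myeloid activation, at 109 and 1489 CPM (3.77, 3.51 to 4.04). In the 4 progressed neutrophils Cebpb gave 4 UMIs (567 CPM), Jund 1 and Klf2 1.

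These differences were shared in part with the other cells of the tumors. Cebpb was higher in the regressed tumor also in macrophages and Monocytes1 cells (2.79), in NK/T cells (5.24, 2.74 to 10.55) and in non-immune stroma (2.56). The NK/T values of Cebpb and Klf2 each rest on 1 UMI in the untreated NK/T cells. Jund was higher there by 0.98, 2.52 and 2.03, Zfand5 by 1.31, 3.01 and 1.25, and Pnrc1 by 0.75, 1.61 and 1.27. Snx20 was higher by 1.94 in macrophages with Monocytes1 cells and by 2.62 in stroma. The untreated NK/T cells held no UMI of it, and with the floor of 3 UMIs the NK/T value was 2.17 (lower bound 1.83). Klf2 was higher in NK/T cells (4.88) but at -0.25 and -0.26 in macrophages with Monocytes1 cells and in stroma, and Fgl2, a myeloid prothrombinase-like protein, at 0.49, -0.46 and 0.33. The part of a difference between the libraries as wholes in the neutrophil values was not tested.

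**Figure D4:**
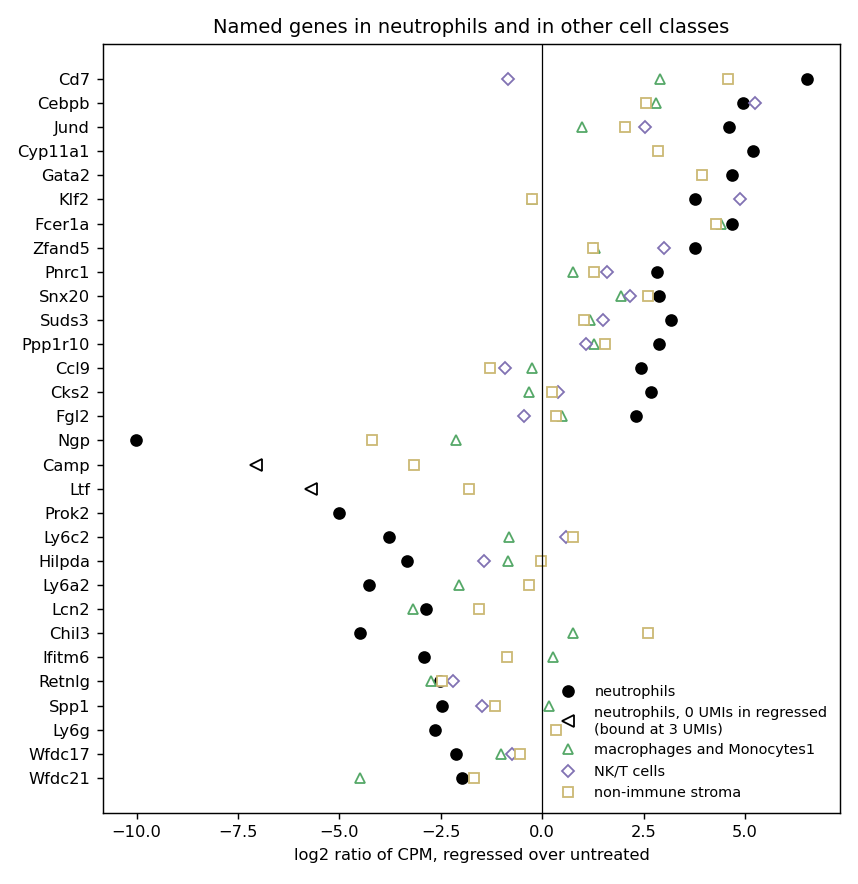
Log2 ratio of CPM, regressed over untreated, for the 15 higher and 15 lower named genes in neutrophils (black) and in macrophages with Monocytes1, NK/T cells and non-immune stroma (open symbols, shown with at least 20 UMIs). Left-pointing triangles mark neutrophil values with 0 UMIs in the regressed tumor, and any 0 in a tumor is set to the floor of 3 UMIs. Cebpb, Jund, Zfand5 and Snx20 lie to the right of 0 in every class, while Hilpda, Ly6c2 and Ifitm6 are far to the left in neutrophils and within 1.5 of 0 elsewhere.

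Receptors for chemoattractants and cytokines were mostly near the shift common to all features. Of 17 genes tested, 4 were at least 2-fold higher, against 30.1% of all features, and 0 at least 2-fold lower, with a median of 0.45, which lies 0.12 below the median of all features. Cxcr2 stood at 447 CPM in untreated and 904 CPM in regressed neutrophils (1.02, 0.81 to 1.22), or at 448 and 946 CPM without the Mcpt8 cells. Cxcr4, which retains neutrophils in the marrow and marks aged cells, stood at 46.0 and 175 CPM (1.93, 1.38 to 2.46), and Il1rap, the shared IL-1 receptor chain, at 74.3 and 279 CPM (1.91). Csf3r stood at 580 and 800 CPM (0.46), the decoy receptor Il1r2 at 1457 and 2329 CPM (0.68), and the chemokine receptor Ccr1 at 1475 and 1455 CPM (-0.02). The fourth, the interferon receptor chain Ifnar1, stood at 19.7 and 53.8 CPM (1.45). Of these, Cxcr4 and Il1rap kept a ratio over 1 with TMM scaling (1.31 and 1.29), whereas Cxcr2 then stood at 0.40. After thinning to 500 UMIs, Cxcr2 was found in 22.5% (18.5 to 27.0) of untreated and 37.3% (30.7 to 44.3) of regressed neutrophils, and in 0.0761% and 0.211% of stroma cells.

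Chemokine RNA was dominated by Cxcl2 in both tumors. Cxcl2, the ligand of CXCR2, stood at 29815 CPM in untreated and 18076 CPM in regressed neutrophils (-0.72, -0.76 to -0.68), and was found in 95.7% and 74.2% of thinned cells, against 6.74% and 4.96% of stroma cells. Ccl3 stood at 3529.8 and 4235 CPM (0.26) with all cells of the cluster, but 623 of its 1260 regressed UMIs lay in the 11 Mcpt8 cells, and without them it was at 3321 and 2354 CPM (-0.50, -0.62 to -0.38). Its neighbour Ccl4 stood at 3570 and 4941 CPM (0.47) with and at 3362 and 3308 CPM (-0.02, -0.13 to 0.08) without them. Ccl2, a monocyte attractant, stood at 231 and 40.3 CPM (-2.52). Of 9 chemokines tested, 1 (Ccl9) was at least 2-fold higher and 1 (Ccl2) lower, against 30.1% and 4.93% of all features. Their median was 0.26, and without the Mcpt8 cells none was higher and the median was -0.35.

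Cytokines split between genes near their untreated level and a few that differed. Il1b, the pyrogenic interleukin, stood at 13256 and 11303 CPM (-0.23, -0.28 to -0.18) and Il1a, the related alarmin cytokine, at 99.3 and 37.0 CPM (-1.43). Ptgs2, the inducible cyclooxygenase that makes prostaglandins, stood at 246 and 968 CPM (1.98), or 245 and 1005 CPM without the Mcpt8 cells, and in thinned cells was found in 12.8% and 36.8%, against 0.533% and 0.211% of stroma cells. Areg, a ligand of the EGF receptor, stood at 70.3 and 3.36 CPM (-4.39), where the regressed value is 1 UMI. Csf1, the macrophage growth factor, stood at 38.8 and 141 CPM (1.86) with and at 38.3 and 81.3 CPM (1.09) without the Mcpt8 cells. Of 13 genes tested, 3 (Ptgs2, Csf1 and Vegfa) were at least 2-fold higher and 2 (Areg and Il1a) lower, against 30.1% and 4.93% of all features, with a median of 0.52. With the Mcpt8 cells left out 4 were higher and 3 lower with a median of 0.20, where Il6 rests on 1 regressed UMI, and under TMM scaling 2 were higher and 4 lower.

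**Figure D5:**
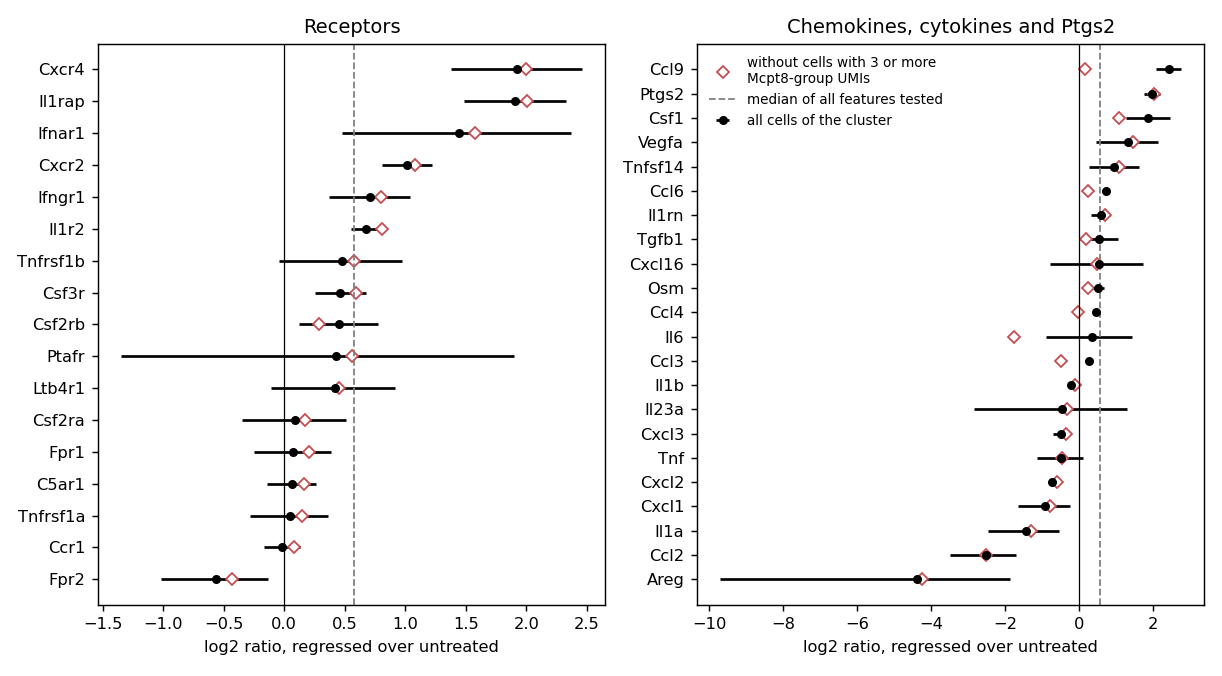
Log2 ratio of CPM, regressed over untreated neutrophils, for the receptors (left) and for chemokines, cytokines and Ptgs2 (right) with at least 20 UMIs, with 95% counting intervals; open diamonds give the ratio without the Mcpt8 cells and the dashed line the median of all features tested, 0.58. Ccl9 and Il6 move most when those cells are left out, while Cxcr4, Il1rap, Cxcr2 and Ptgs2 keep their place.

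Interferon-stimulated, hypoxia and pattern recognition genes lay below the common shift. Of 19 interferon-stimulated genes 5 (Oasl2, Usp18, Ifit1, Ifitm1 and Isg20) were at least 2-fold lower, against 4.93% of all features, and 1 (Irf1) higher, with a median of -0.35. TMM scaling gave 9 lower and 0 higher, and 4 were lower with the Mcpt8 cells left out, where Isg20 stood at -0.93. Usp18 then rested on 1 regressed UMI (-1.84, -7.21 to 0.81). Ifitm1, a restriction factor of virus entry, stood at 8660 and 3791 CPM (-1.19). Of 24 hypoxia and glycolysis genes 4 were lower, Hilpda, Adm, Gapdh and the prolyl hydroxylase Egln3, and 3 higher, Ndrg1, Vegfa and P4ha1. Of all features 4.93% were lower and 30.1% higher. The median of the list was -0.04, and under TMM scaling 10 were lower and 1 higher. Adm rested on 2 regressed UMIs with the Mcpt8 cells left out (-1.21, -4.33 to 0.78). Of 14 pattern recognition and Fc receptors none was 2-fold apart in either direction, with a median of 0.03: Cd14, the coreceptor for lipopolysaccharide, stood at 3084 and 2228 CPM (-0.47) and Clec4e, a receptor for fungal and mycobacterial lipids, at 1309.6 and 1694 CPM (0.37).

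Immediate early genes lay near the common shift, and the place of survival regulators against it changed with the setting. Of 14 immediate early genes 4 were at least 2-fold higher (Jund, Klf2, Ier2 and Jun), a share no larger than the 30.1% of all features, with a median of 0.63, and TMM scaling left 2. With the Mcpt8 cells left out Jun stood at 0.87 and Btg2 at 1.08; Ier2 stood at 1029 and 2827 CPM (1.46) and Fos at 2302 and 3586 CPM (0.64). Of 16 survival and cell death genes 6 were higher, against 30.1% of all features, among them the kinase Pim1 at 222 and 652 CPM (1.55) and Gadd45b at 250.5 and 682 CPM (1.45), and 2 lower, against 4.93%, with a median of 0.37; under TMM scaling 1 was higher and 3 lower. With the Mcpt8 cells left out 6 were higher and 3 lower. Against the median of all features the survival list stood at -0.21 with all cells and -0.02 without the Mcpt8 cells. After thinning it stood at 0.21, with 7 genes tested. Mcl1, the BCL-2 family protein that neutrophil survival depends on, stood at 659 and 1230.2 CPM (0.90), and the related Bcl2l1 at 181 and 63.9 CPM (-1.51). Of 17 neutrophil transcription factors 3 (Cebpb, Klf2 and Cebpa) were higher and 1 (Maff) lower, against 30.1% and 4.93% of all features. Their median was 0.54. With the Mcpt8 cells left out 2 of 16 were higher and 0 lower, since Cebpa had too few UMIs and Maff stood at -0.91. Cebpd stood at 381 and 555 CPM (0.54) and Spi1, the myeloid master regulator PU.1, at 853 and 709 CPM (-0.27).

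The remaining lists were small or mixed. Their counts are to be read against all features, of which 30.1% were at least 2-fold higher and 4.93% lower. Under TMM scaling these shares were 11.2% and 13.4%. Of 17 genes of the SiglecF-high program described in tumor neutrophils 4 were higher, Cd63, Cd9, Csf1 and Vegfa, and 1, Spp1, lower, with a median of 0.47 (1 higher and 3 lower under TMM scaling); Cd63, a granule membrane tetraspanin, stood at 277 and 773 CPM, or 274 and 639 CPM without the Mcpt8 cells. Of 12 genes linked to suppressor cells Ptgs2 was higher and Wfdc17 and Nos2 lower (median -0.03). Nos2 rested on 1 regressed UMI with the Mcpt8 cells left out (-2.91, -8.24 to -0.35). Of 6 NADPH oxidase genes Cybb was lower and none higher (median -0.17), but without the granule-rich cells 0 of the 6 were lower. Of 15 NF-kB genes Tnfaip2 and Nfkb1 were higher (0.24), and of 9 adhesion genes Itga4 and Itgal (0.62). Of 8 MHC class I genes Tap2 was higher (0.44), and of 6 heat shock genes Hspa8 and Dnaja1 (0.81). With the Mcpt8 cells left out Nfkb1 stood at 0.90 and Dnaja1 at 0.74, and Pecam1 of the adhesion list at 1.07. Of 9 MAPK target genes 4 had enough UMIs, with a median of -0.64, and Fosl1 at 65.1 and 13.4 CPM and Phlda1 at 511 and 192 CPM were lower, with Dusp6 at 88.8 and 97.5 CPM. Of 12 genes of dividing and immature cells 4 passed the filter and Tuba1b and Hmgb2 were higher (0.55). Of 9 mitochondrially encoded genes ND6 was higher and ATP6 lower, with a median of -0.32. With the Mcpt8 cells left out COX3 stood at -1.04 (-4.17 to 0.98) and ATP6 at -1.01 (-2.94 to 0.45), on 2 and 4 regressed UMIs.

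The leading axis of variation among neutrophils held chemokine genes at one end in the untreated tumor, and differed in the regressed one with and without the Mcpt8 cells. The first principal component of cells thinned to 500 UMIs, over 431 genes in 391 untreated cells, held 3.97% of the variance, with Ccl3, Spp1, Ccl4, Cd14, Clec4d, Ier3, Cxcl3, Cxcl2, Hilpda and Plaur at one end and Fos, Msrb1, Hp, Rps9, Ifitm6, Wfdc21, Lrg1, Sh3bgrl3, Prr13 and Lcn2 at the other. In 209 regressed cells it held 3.12%, with Cxcl2, S100a9, S100a8, Il1b, Cd14, Il1r2, Slpi, Mir7678, Clec4d and Fth1 at the Cxcl2 end, of which 3 of 10 were shared with the untreated axis, and Ccl6, Jun and ribosomal protein genes leading the other. Without the Mcpt8 cells the regressed axis led with Cxcl2, Ccl3, Ccl4, Ier3, Clec4d, Fth1, Acod1, Nfkbia, Marcksl1 and Cd14, which shared 6 of 10 genes with the untreated axis computed the same way, and its other end, with Ccl6, Klf2, Cd52, Lst1 and Pfn1 leading, shared 1 of 10. Across thinned cells of the untreated tumor Ccl3 and Ccl4 correlated with a Pearson r of 0.68 (n = 391 cells), Cxcl2 and Ccl3 with 0.56, S100a8 and S100a9 with 0.72, and Cxcl2 and S100a8 with -0.32. In the regressed tumor the values were 0.44, 0.22, 0.82 and -0.14 (n = 209 cells), and with the Mcpt8 cells left out 0.28, 0.47, 0.81 and -0.24 (n = 198 cells). These cells share a library and, after thinning, a fixed total, so a gene that takes much of the total lowers the others.

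The 4 progressed neutrophils could be described only by their counts. S100a8 was found in all 4 cells with 578 UMIs (81893 CPM), S100a9 in all 4 with 234, Il1b in all 4 with 155 and Csf3r in all 4 with 9 UMIs. Cxcr2 gave 4 UMIs in 3 cells, Cxcl2 67 UMIs in 3 cells, and 53 of the 56 UMIs of Retnlg lay in 1 cell. Outside the cluster S100a8 RNA was rare in that tumor: it was found in 1.20% of non-immune stroma cells, against 77.7% in the untreated and 55.6% in the regressed tumor.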

How the data were processed

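Single cells of 3 tumors, 1 in each group, were captured in droplets (Chromium Single Cell kit per the labels, which reads the 3′ ends of transcripts) after digestion with collagenase and trypsin. As deposited, the tables hold raw counts: per the study's methods the authors aligned reads to GRCm38 with GSNAP, kept uniquely mapped reads, counted UMIs per gene and cell, required at least 300 UMIs in a cell, clustered with Seurat (2.2.0 per the submitters' processing notes) and took out clusters rich in mitochondrial or dividing cells. No cell was taken out here on these grounds, and any such removal before deposit would bear on the mitochondrial and dividing gene lists. The deposited cluster table gave each cell its name. No doublet caller was run here, and 0 cell names were shared between libraries.

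Counts of neutrophils were summed per tumor and scaled to CPM (Python 3.11.15, numpy 2.4.6, pandas 2.3.3). Intervals are exact Poisson (CPM), Clopper-Pearson (shares) and conditional binomial (log2 ratios), from scipy 1.17.1, at 95%, and cover counting error only, since 1 tumor in a group allows no test. Features with at least 20 UMIs in both tumors together were compared, and 2-fold was the size at which a feature was counted as higher or lower. For a gene without a UMI in a group, 3 UMIs summed across its neutrophils served as the floor. TMM factors came from edgeR 4.0.16 in R 4.3.3. Thinning drew 500 UMIs per cell with a fixed seed and left out 7 shallower regressed neutrophils. Median depths were 3257, 1251.5 and 1759.5 UMIs. The scripts were tested on simulated data. Columns of per-sample values that were not used numbered 0.

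Named genes had a symbol, at least 100 CPM and 10 cells with a UMI in the higher tumor, and a CPM there no lower than over all its other cells, without haemoglobin, Xist, Y-linked and mitochondrial genes; the first 15 in each direction by the interval bound nearest 0 were taken. Marker genes had at least 500 CPM in untreated neutrophils and were ranked by their ratio to the next immune cluster with at least 10 cells. The neutrophils, the gene lists and these rules were chosen with earlier results of these data known. Other scalings, filters, cell weights, depths and cell selections were tried. Leaving out the Mcpt8 cells or the granule-rich cells was added after seeing the data. Promoter sequences came from RefSeq (GRCm38.p6), matched by symbol for 17 of the 20 granule genes. A further allele that all 3 tumors share and single values of some list members are not reported here.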

Additional observations from a re-analysis of the deposited data

How the results depend on the processing

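No paired analysis was possible because each group had 1 tumor, and for the same reason no replicate could be left out. Against 1770 features at least 2-fold higher and 290 lower in regressed neutrophils, TMM scaling gave 660 and 791, a minimum of 50 UMIs 663 and 142, thinning to 500 UMIs 357 and 114, and leaving out cells with 2 or more UMIs of another class, which kept 85 untreated and 78 regressed cells, 368 and 127; a minimum of 1 UMI gave 8457 higher. The granule list kept a median below 0 in 10 of 10 settings, from -1.82 to -0.56, the last without cells holding genes of another class, and stood at -0.65 without the granule-rich cells. The heat shock median was 1.30 after thinning and 1.03 without the deepest 5% of cells, that of the MAPK targets -1.26 with TMM, and that of dividing cell genes 1.23 without the granule-rich cells. Neutrophil shares of all cells were 9.55%, 5.80% and 0.0825%, and the regressed share was 30.04% of immune cells other than NK/T cells and 18.04% of those with at least 1000 UMIs. Of the 10 genes at an end of the first component, the untreated end away from Cxcl2 kept 1 with cells scaled by their totals and 6 without the Mcpt8 cells, the regressed Cxcl2 end 4 without the Mcpt8 cells, and the other regressed end 6 and 2. The causes were not tested. All 30 named genes kept their direction and at least 2-fold size with TMM, other totals, equal weight per cell and without the deepest 5%. Without the Mcpt8 cells 25 of the 26 with enough UMIs did so, Ccl9 being the exception. So did all with enough UMIs after thinning (22), without cells holding genes of another class (20) and without the granule-rich cells (28). The genes were picked for large ratios, so their staying 2-fold apart is no test. The settings without the Mcpt8 cells and without the granule-rich cells were chosen after seeing the data. The 4 progressed neutrophils held 7058 UMIs. There 1 UMI is 142 CPM and the floor of 3 UMIs is 425 CPM, so low levels could go unseen.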
